A study of Drosophila melanogaster with 8 samples.

Results

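The transcripts of 3 molecular machines of the inner mitochondrial membrane were followed, namely complex III (the cytochrome bc1 complex), complex IV (cytochrome c oxidase) and ATP synthase. Complex III takes electrons from ubiquinol and hands them to cytochrome c, complex IV passes them from cytochrome c to oxygen, and both leave protons on the outer side of the membrane. ATP synthase lets these protons flow back and uses the flow to make ATP. Most of their subunits are encoded by nuclear genes, whereas the catalytic core of complex IV and part of the other complexes come from mitochondrial DNA.

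Members were taken by gene symbol alone, without regard to their expression: all genes annotated as UQCR-, COX with a digit, ATPsyn or Cyt-c with a digit, and in addition RFeSP, ox, blw, levy, cype, Cyt-c-p and sun. Of 11982 genes with a probe set of their own, 42 fitted, of which 10 belonged to complex III, 16 to complex IV and 16 to ATP synthase. Each was read from its brightest probe set. Another 10 genes with such names in the RefSeq annotation lacked a probe set annotated to them alone and were not analysed here. They were UQCR-C1, UQCR-C2, UQCR-6.4L, the electron carrier Cyt-c-p, COX7CL, the mitochondrially encoded COX1, COX2 and COX3, and COX6B and ATPsynG, which shared their probe sets with other genes.

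Expression was measured in heads of female Canton-S flies, a laboratory wild-type strain, on Affymetrix Drosophila Genome 2.0 arrays. Short-day females had 10 h of light and 14 h of darkness per day and long-day females 16 h of light and 8 h of darkness, both at 12.5 °C for 12 days after emergence, and heads were taken 4 h after lights-on. The methods of the study describe a shorter short day than the labels, and the labels are followed here. There were 4 short-day and 4 long-day samples with 1 array each, and since no label ties them to separate rearing vials, the p-values measure variation between arrays that could be technical in part.

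All values are on the log2 scale of the deposited table, on which the lowest value was 2.15 and the highest 15.52. Differences are short day minus long day, so that positive values mean a higher level in short days. A gene was called when its unadjusted p in limma, a linear model with variances moderated across genes, was under 0.01, the threshold of the study. No gene of the 11982 passed 0.05 after Benjamini-Hochberg adjustment by its brightest probe set, whereas 417 were called and 1332 had an unadjusted p under 0.05. The labelled tissue was matched by its markers. The photoreceptor and neuronal markers were well measured on all arrays, and the 13 markers of testis and male glands with a probe set were under 3 on every array. The sample of short-day replicate 3 stood apart in flight muscle transcripts, such as fln (flightin), at 11.71 there and at most 2.69 elsewhere, and TpnC4 (a flight muscle troponin C), at 10.36 there and at 2.15 elsewhere. It also stood apart in Fbp1 and Fbp2 (fat body proteins), at 6.26 and 7.06 there and under 3 elsewhere.

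In each of the 3 complexes 1 gene was called, and it was higher in short days. Whole heads were measured, in which more cells of a type and more RNA per cell cannot be told apart. Of the 42 members 3 were called and all of them were higher in short days, against 3.48% called in either direction among all genes. They were UQCR-11 in complex III, COX7AL2 in complex IV and ATPsynC in ATP synthase, and they were 1.55-fold, 1.32-fold and 1.12-fold higher. The other members were not called. In heads, 30 members had a mean of 4 or more over the 8 arrays and 12 lay near the lowest value. Of the 30, 10.0% were called, all upwards, against 5.65% of all 7348 genes of mean 4 or more in either direction and 2.91% upwards. Most members are very bright, however, and 26 of the 30 had a mean of 12 or more. Of these 26, 2 were called (7.69%), against 12.4% of the 469 genes of such brightness in either direction and 7.25% upwards, so that the share of bright members called was near the background. This comparison by brightness was chosen after the values had been seen.

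The differences were small and of one sign. All 30 members had a higher mean in short days, against 56.2% of genes of mean 4 or more. Of the genes of mean 12 or more, 60.8% had a higher short-day mean. The median difference of the 30 members was 0.10, against 0.02 over all genes of mean 4 or more and 0.04 over those of mean 12 or more. An unadjusted p under 0.05 was reached by 12 of the 30 (40.0%), all upwards, against 17.8% of all genes of mean 4 or more in either direction. Among the 26 bright members it was reached by 10 (38.5%), all upwards, against 30.3% of the genes of mean 12 or more in either direction. The upward share alone was not computed at this threshold, so these shares are not like for like. In 7 of the 30 (23.3%) all short-day samples lay above all long-day samples and in none below, against 11.7% of genes of mean 4 or more that did not overlap in either direction and 6.18% that lay above. Among the 26 bright members 5 lay above (19.2%), against 11.1% of the genes of mean 12 or more. This 11.1% leaves out the genes that lay below: of these 469 genes, 52 lay above and 38 below.

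At most 2 of the measured members changed direction under any single alternative processing. This happened for COX7A and ATPsynepsilonL after a second quantile normalization, for COX7A after median centring, and for COX7A, ATPsynepsilonL or COX4 when single arrays were left out. The calls also changed with the arrays used. None of the members was called without the array of long-day replicate 2 or of long-day replicate 4, only UQCR-11 was called without short-day replicate 3, long-day replicate 1 or long-day replicate 3, and 6 members were called without short-day replicate 4.

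**Figure D1:**
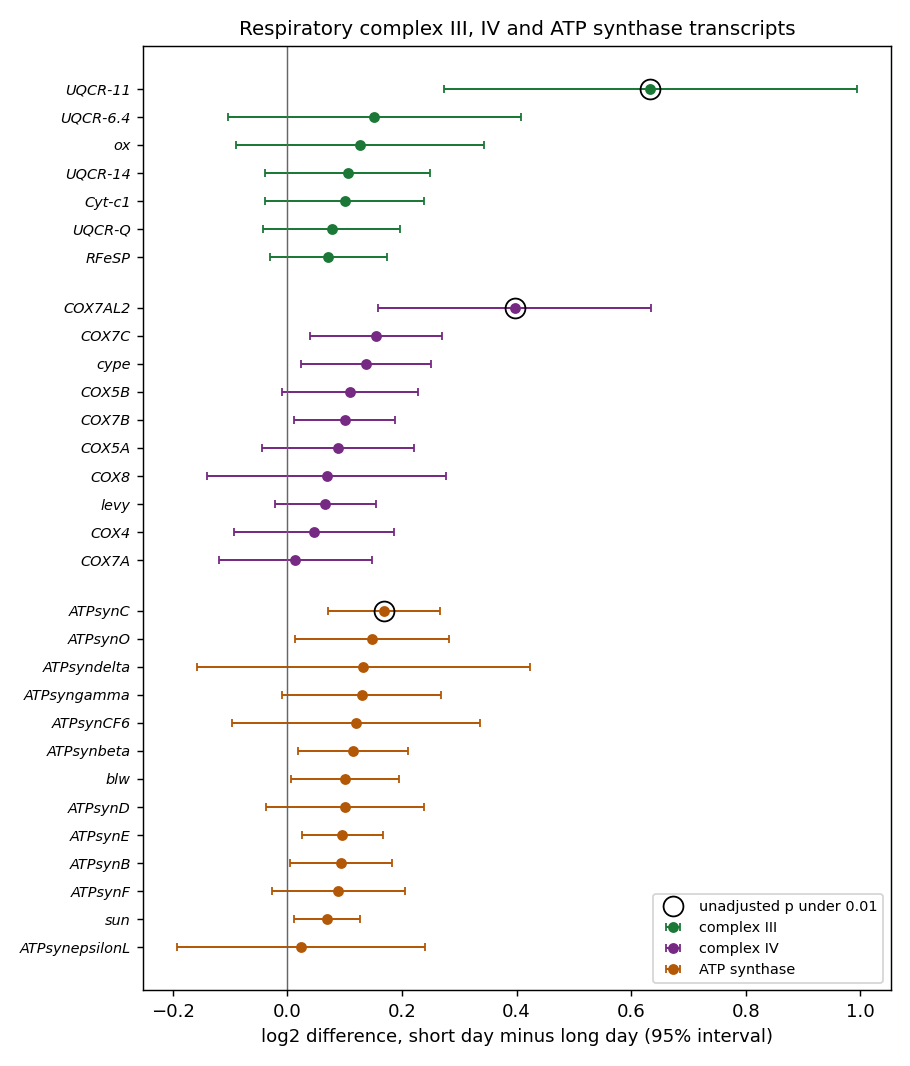
Log2 difference (x axis, short day minus long day, with 95% intervals from limma) of the 30 members of mean 4 or more (y axis), by complex, from 4 short-day and 4 long-day samples. All points lie to the right of 0, from 0.01 for COX7A to 0.63 for UQCR-11, and 12 intervals exclude 0. Rings mark the 3 called genes.

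In complex III, 7 of 10 members were measured well above the lowest value. UQCR-11 rose, 6 had higher means without being called, and the median difference of the 7 was 0.11. UQCR-11 (CG41623) encodes the small hinge protein that holds cytochrome c1 in place for the docking of cytochrome c. Its short-day values were 9.10, 9.52, 9.06 and 9.24 in replicates 1 to 4, against long-day values of 8.85, 8.37, 8.73 and 8.44. All short-day samples were above all long-day samples, and the gap between the groups was smaller than the range within either group. The means were 9.23 ± 0.21 in short days and 8.60 ± 0.23 in long days (SD, n = 4 each), a difference of 0.63 with a 95% interval of 0.27 to 0.99 (past the call threshold, limma adjusted p = 0.299).

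Of the electron-carrying subunits of complex III, Cyt-c1 and RFeSP were measured. Cyt-c1 encodes cytochrome c1, the haem protein that reduces cytochrome c. It was at 13.35, 13.55, 13.41 and 13.38 in short days, against 13.39, 13.39, 13.27 and 13.24 in long days. The groups overlapped, with long-day replicates 1 and 2 above the lower short-day samples, and the difference was 0.10 (95% interval -0.04 to 0.24, limma adjusted p = 0.750). RFeSP encodes the Rieske iron-sulfur protein, which takes the first electron from ubiquinol, and averaged 12.70 ± 0.07 in short days and 12.63 ± 0.05 in long days (difference 0.07, 95% interval -0.03 to 0.17).

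Among the other small subunits, UQCR-14, the homologue of the ubiquinone-binding subunit of mammals, was at 13.70, 13.78, 13.84 and 13.63 in short days, against 13.60, 13.75, 13.56 and 13.61 in long days. Long-day replicate 2 alone lay within the range of the short-day samples. The difference was 0.11 (95% interval -0.04 to 0.25, limma adjusted p = 0.746). UQCR-Q, another small subunit, averaged 11.16 ± 0.09 in short days and 11.09 ± 0.05 in long days. UQCR-6.4 and ox, also small subunits, had differences of 0.15 and 0.13 with intervals that included 0. In both, the sample of short-day replicate 3 was the highest of all 8, with 13.51 for UQCR-6.4 and 12.88 for ox.

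In complex IV, 10 of 16 members were measured. COX7AL2 rose, the other 9 had higher short-day means without being called, and the median difference of the 10 was 0.09. COX7AL2 (CG34172) encodes one of 3 proteins of the COX7A family named on the array, which in mammals sit at the surface of the complex where it meets its neighbours in supercomplexes. Its short-day values were 12.47, 12.69, 12.74 and 12.32, against long-day values of 12.24, 12.17, 12.13 and 12.09. Every short-day sample was higher than every long-day sample, and the short-day samples were more scattered. The means were 12.55 ± 0.19 in short days and 12.16 ± 0.06 in long days, a difference of 0.40 (95% interval 0.16 to 0.63, past the call threshold, limma adjusted p = 0.313).

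COX7A, whose symbol carries no paralogue suffix, had the smallest difference of the 30 members, 0.01 (95% interval -0.12 to 0.15). Its short-day values were 13.73, 13.76, 13.70 and 13.65, against long-day values of 13.64, 13.84, 13.69 and 13.60. The groups overlapped fully, and the highest value was that of long-day replicate 2. COX7AL stayed under 3 on all 8 arrays. The difference between the responses of COX7AL2 and COX7A was not tested. COX7AL2 was read by a single probe set, of a type that allows probes shared with related transcripts.

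Other small subunits of complex IV showed differences near 0.1. COX7C, a subunit of the COX7 group, was at 13.47, 13.45, 13.55 and 13.34 in short days, against 13.23, 13.30, 13.33 and 13.33 in long days. Short-day replicate 4 was only just above the highest long-day sample, so the groups were separate by a narrow margin (difference 0.16, 95% interval 0.04 to 0.27, limma adjusted p = 0.405). The gene cype (cyclope), encoding the COX6C subunit, was at 13.11, 13.12, 13.24 and 13.05 in short days, against 12.94, 13.07, 12.99 and 12.97 in long days. Long-day replicate 2 was slightly above short-day replicate 4, and the difference was 0.14 (95% interval 0.02 to 0.25, limma adjusted p = 0.468). COX7B averaged 13.58 ± 0.05 in short days and 13.47 ± 0.05 in long days, a difference of 0.10 (limma adjusted p = 0.496). A dimmer probe set of COX7B gave 0.05 with an interval of -0.14 to 0.24, and the other stayed under 3.

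The other 5 measured subunits of complex IV were not called. COX4, the regulatory subunit that binds ATP in mammals, had a difference of 0.05 (95% interval -0.09 to 0.19), with values of 13.49, 13.70, 13.47 and 13.47 in short days, against 13.50, 13.44, 13.50 and 13.52 in long days. Only short-day replicate 2 was outside the range of the long-day samples on the upper side. COX5A and COX5B had differences of 0.09 and 0.11, and levy, the COX6A subunit whose loss causes degeneration of adult flies, one of 0.07 (95% interval -0.02 to 0.15). COX8 had a difference of 0.07 (95% interval -0.14 to 0.28), with its highest values in short-day replicate 3 (13.39) and long-day replicate 2 (13.38). None of these 5 genes had an interval that excluded 0.

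In ATP synthase, 13 of 16 members were measured. ATPsynC rose, the other 12 had higher short-day means without being called, and the median difference of the 13 was 0.10. ATPsynC (CG1746) encodes subunit c, of which several copies form the ring that turns in the membrane as protons pass. Its short-day values were 14.36, 14.51, 14.41 and 14.33, against long-day values of 14.26, 14.23, 14.21 and 14.24. The short-day samples were all higher, and the long-day samples lay very close together. The means were 14.40 ± 0.08 in short days and 14.23 ± 0.02 in long days, a difference of 0.17 (95% interval 0.07 to 0.27, past the call threshold, limma adjusted p = 0.301). The call was lost when dim probe sets, those of mean under 4, were dropped before the fit, and also when the variance was modelled robustly with a trend on the mean level.

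In the catalytic head and central stalk, 5 subunit genes had differences between 0.07 and 0.13. The gene blw (bellwether) encodes the alpha subunit, and was at 14.28, 14.27, 14.25 and 14.31 in short days, against 14.23, 14.24, 14.08 and 14.16 in long days. The groups did not overlap, but long-day replicates 1 and 2 were nearly as high as the lowest short-day sample, and the difference was 0.10 (95% interval 0.01 to 0.20, limma adjusted p = 0.531). ATPsynbeta, the beta subunit that carries the catalytic sites, averaged 14.46 ± 0.06 in short days and 14.35 ± 0.06 in long days (difference 0.11, limma adjusted p = 0.479), and its dimmer probe set gave 0.08 (95% interval -0.12 to 0.28).

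In the central stalk the differences were of similar size. ATPsyngamma, the shaft that rotates within the head, averaged 13.80 ± 0.07 in short days and 13.67 ± 0.10 in long days (difference 0.13, 95% interval -0.01 to 0.27), with 0.10 by its second probe set. ATPsyndelta had a difference of 0.13 but a wide interval of -0.16 to 0.42, its highest values being 12.70 in short-day replicate 3 and 12.52 in long-day replicate 2. The gene sun (stunted) encodes the epsilon subunit, and in flies its product is also known as a secreted ligand of the receptor Methuselah. It was dimmer, at 6.40, 6.42, 6.47 and 6.41 in short days, against 6.31, 6.39, 6.33 and 6.39 in long days. These groups were separate by about 0.01, and the difference of 0.07 had a 95% interval of 0.01 to 0.13 (limma adjusted p = 0.470).

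The outer stalk and the membrane part beside the ring were read by 6 genes. ATPsynE, subunit e, which takes part in pairing of the enzyme into dimers, was at 13.47, 13.58, 13.46 and 13.45 in short days, against 13.41, 13.41, 13.37 and 13.39 in long days. All short-day samples were higher, by a margin similar to the spread among long-day samples (difference 0.10, 95% interval 0.03 to 0.17, limma adjusted p = 0.405). ATPsynO, the protein that ties the stalk to the head and confers oligomycin sensitivity, averaged 13.69 ± 0.06 in short days and 13.54 ± 0.10 in long days (difference 0.15, limma adjusted p = 0.517). ATPsynB averaged 13.18 ± 0.05 in short days and 13.09 ± 0.05 in long days (difference 0.09, limma adjusted p = 0.536). ATPsynD, ATPsynF and the coupling factor ATPsynCF6 had differences of 0.10, 0.09 and 0.12, and their intervals included 0.

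**Figure D2:**
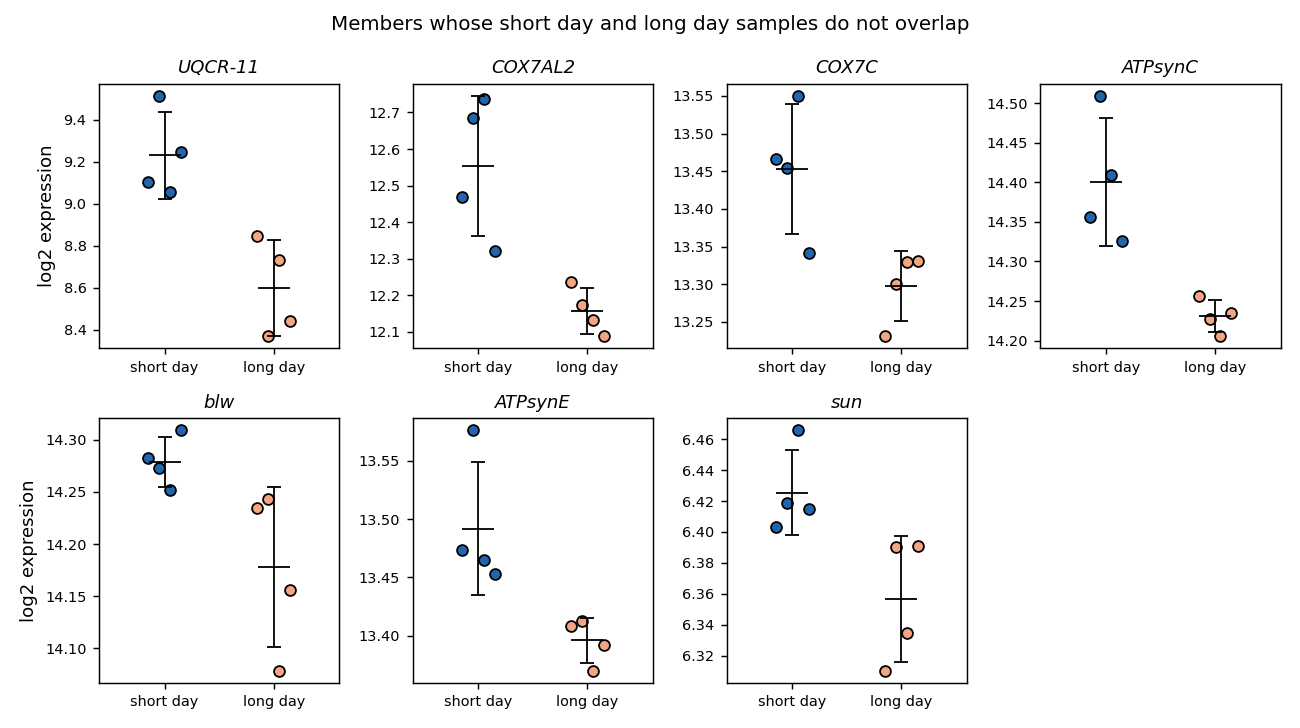
Log2 expression (y axis, a separate scale in each panel) of the 7 members in which all 4 short-day samples (left) lay above all 4 long-day samples (right). Points are single samples and bars show the mean ± SD. UQCR-11 has the widest separation and COX7C, blw and sun the narrowest, about 0.01.

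A further group of members was not measurable in heads. In Drosophila many nuclear genes of oxidative phosphorylation have a duplicate that is expressed mainly in testis, and 14 of the 42 members carry the suffix of such a paralogue in their names. Of these, 12 had means under 4 and stayed under 3 on all 8 arrays: UQCR-11L, UQCR-14L, Cyt-c1L, COX4L, COX5BL, COX6AL, COX6AL2, COX6CL, COX7AL, ATPsynbetaL, ATPsynCF6L and ATPsynGL. Their differences lay between -0.01 and 0.06, at a level where the arrays carry no measurable difference. The exceptions were COX7AL2, described above, and ATPsynepsilonL, which was faint, at 4.22 ± 0.13 in short days and 4.19 ± 0.13 in long days (difference 0.02, 95% interval -0.19 to 0.24).

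The samples differed among themselves in a way that ran through all 3 complexes. Deviations of each member from its own mean over the 8 arrays were averaged by sample. For the 30 members these averages were 0.04, 0.11, 0.12 and -0.02 in short-day replicates 1 to 4, against -0.04, -0.01, -0.10 and -0.10 in long-day replicates 1 to 4. Short-day replicate 4 lay within the range of the long-day samples, so that the groups overlapped. Short-day replicate 3 had the highest value of all 8 samples in 15 members and short-day replicate 2 in 10, whereas the lowest value fell in long-day replicate 3 in 10 members and in long-day replicate 4 in another 10.

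By complex, the averages were 0.03, 0.14, 0.18 and 0.01 in short days, against -0.05, -0.05, -0.11 and -0.15 in long days for complex III. Here the groups did not overlap, but without UQCR-11 they did, with -0.04 in short-day replicate 4 and 0.04 in long-day replicate 2. For complex IV the averages were 0.04, 0.12, 0.13 and -0.04 in short days, against -0.07, 0.00, -0.08 and -0.09 in long days. For ATP synthase they were 0.04, 0.09, 0.09 and -0.01 in short days, against -0.02, 0.00, -0.10 and -0.09 in long days. Long-day replicate 2 reached short-day replicate 4 in complex IV and in ATP synthase.

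The order of samples within a group was not the same in all members. Short-day replicate 3 was the highest short-day sample in 15 of the 30 members and long-day replicate 2 the highest long-day sample in 19, and both held in 11: UQCR-14, UQCR-Q, UQCR-6.4, ox, RFeSP, cype, COX5B, COX8, ATPsynbeta, ATPsynCF6 and ATPsyndelta. They came from all 3 complexes, and none of them was called. COX4, ATPsynC and ATPsynE instead had their highest value in short-day replicate 2.

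**Figure D3:**
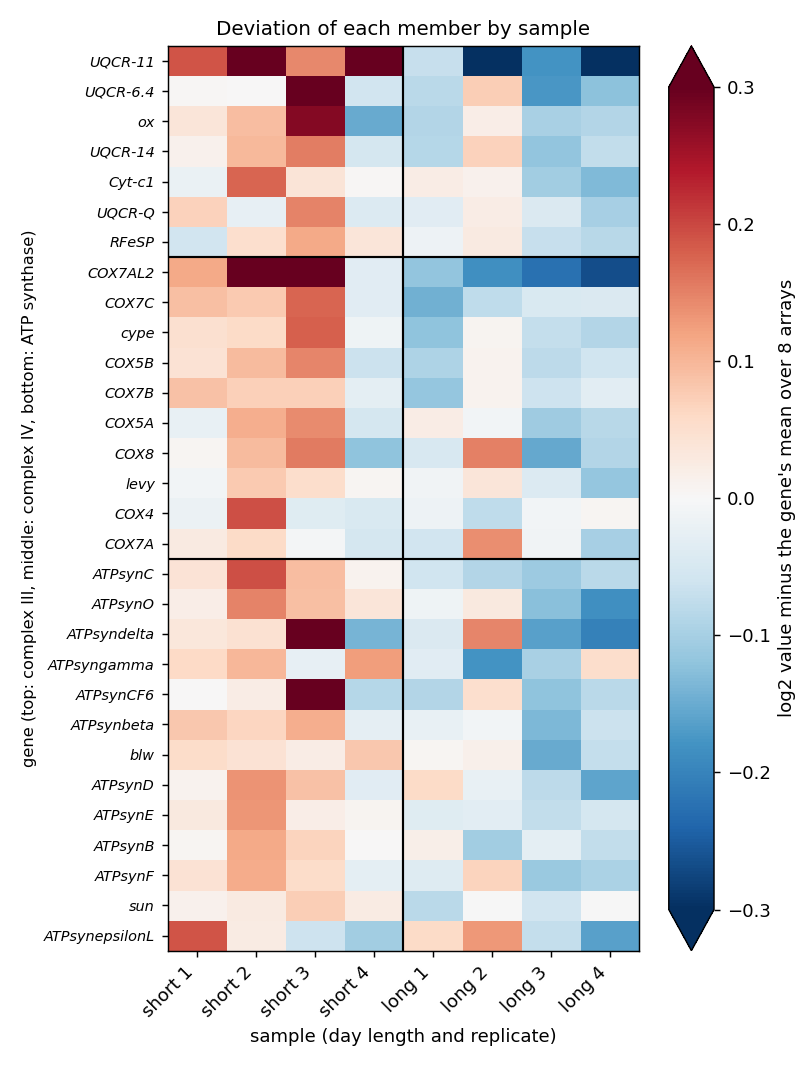
Deviation of each of the 30 members (rows, by complex) from its own mean over the 8 arrays, on the log2 scale (colour, clipped at 0.3), in the 4 short-day samples (left of the line) and 4 long-day samples (right). Short-day replicates 2 and 3 are mostly above the mean, long-day replicates 3 and 4 mostly below it, and short-day replicate 4 and long-day replicate 2 are mixed.

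Of the marker lists of other cell types, those of muscle, neurons and fat body held called genes, whereas none of 6 photoreceptor and none of 5 glial markers was called, with median differences of 0.07 and -0.09. Among all genes of mean 4 or more, 5.65% were called in either direction. The summed level of the photoreceptor markers was 16.55 to 16.79 in short days, against 16.51 to 16.63 in long days, and that of the glial markers 14.20 to 14.38 in short days, against 14.31 to 14.44 in long days. Of 22 listed sarcomere genes 16 were measured, and 8 were called, all higher in short days, with a median difference of 0.47. Their summed level ranged from 16.56 to 16.86 in short days, against 16.25 to 16.47 in long days, and none was near the lowest value. Of 11 measured neuronal markers 3 were called, all higher, with summed levels of 14.82 to 15.06 in short days, against 14.55 to 14.88 in long days. Of 9 fat body markers 6 were called, all lower, and Fbp1 and Fbp2 were above 3 in short-day replicate 3 alone, and the list had summed levels of 16.75 to 17.06 in short days, against 17.35 to 17.41 in long days. The 6 flight and jump muscle markers had summed levels of 13.88 to 14.98 in short days, the highest in replicate 3. In long days the sums were 13.47 to 13.69. Outside short-day replicate 3 the sum was mostly Mlc2, which is also in the sarcomere list. Mlc2 was at 13.77 to 14.06 in short days and 13.30 to 13.53 in long days, and the groups of the other markers overlapped. Act88F was at 8.87, 8.89, 13.10 and 7.98 in short days, against 8.93, 8.18, 8.28 and 7.84 in long days. Both fln and TpnC4 were under 3 outside short-day replicate 3. The part of these cell types in the differences of the 3 complexes was not tested.

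Without short-day replicate 3, the sample with flight muscle transcripts, all 30 members still had higher means in short days, and their median difference was 0.08 in place of 0.10. The difference was 0.69 for UQCR-11, which stayed called, and 0.34 for COX7AL2 and 0.17 for ATPsynC, which did not. Without both that sample and long-day replicate 2, a comparison added after the values had been seen, the differences were 0.62, 0.34 and 0.16, none of these genes was called, and cype was the only member called, with a difference of 0.13.

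**Figure D4:**
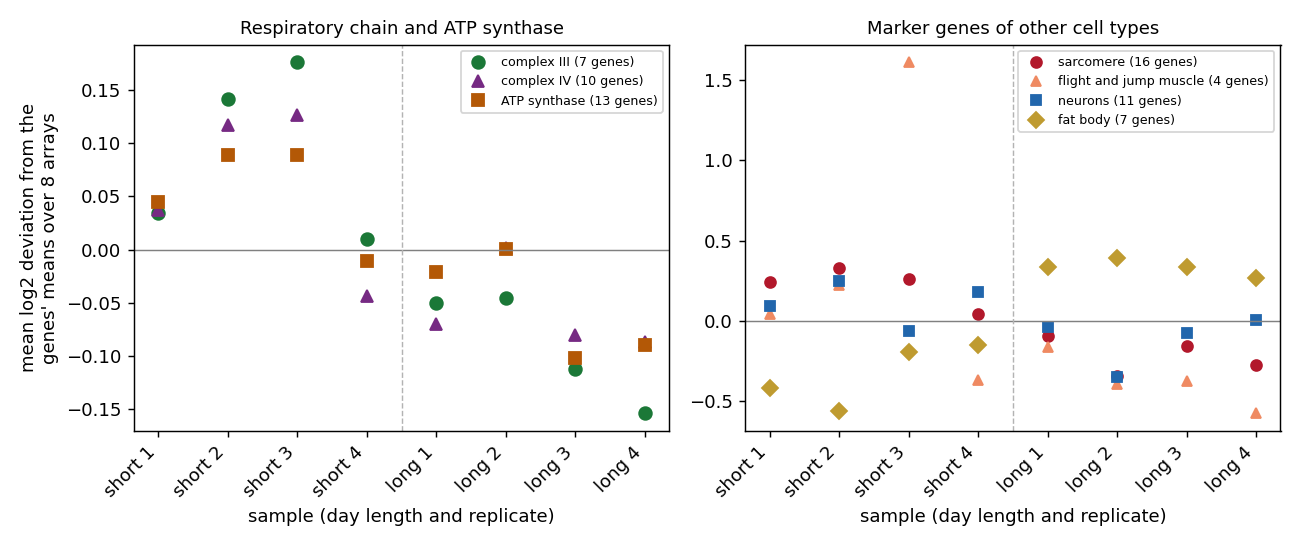
Mean log2 deviation of the genes of a list from their own means over the 8 arrays (y axis), by sample (x axis, short days left of the dashed line), for the measured members of complex III, complex IV and ATP synthase (left) and for markers of muscle, neurons and fat body of mean 4 or more (right, wider scale). Complex III, IV and ATP synthase are highest in short-day replicates 2 and 3, and the flight and jump muscle markers are highest in short-day replicate 3, at 1.61.

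The neighbouring steps of respiration, complexes I and II, were on average also slightly higher in short days. Complex II feeds electrons from succinate to ubiquinone, and of its 6 genes with a probe set 3 were measured and none was called. SdhD and SdhC, its membrane anchors, had differences of 0.18 (95% interval 0.03 to 0.34, limma adjusted p = 0.459) and 0.13 (95% interval 0.02 to 0.23, limma adjusted p = 0.479). The iron-sulfur subunit SdhB had a difference of 0.05 (95% interval -0.17 to 0.27), and the paralogues SdhAL, SdhBL and SdhCL stayed under 3. The sample averages of 26 complex I genes of mean 4 or more (symbols beginning with ND-) were 0.03, 0.09, 0.08 and -0.05 in short days, against -0.02, 0.00, -0.06 and -0.07 in long days, with the same samples at the top and at the bottom. The average difference was 0.12 over the 3 complex II genes and 0.07 over the 26 complex I genes. It was 0.13 over the 30 members and 0.01 over all genes of mean 4 or more. The small rise was thus not particular to complexes III, IV and ATP synthase.

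Of 28 listed genes for assembly, partners and regulation of the complexes 19 were measured, with a median difference of 0.02. Among the 19, 1 was called, a share near the 5.65% of all genes of mean 4 or more. This was sesB, the carrier that exchanges ATP made by ATP synthase for ADP across the inner membrane, with 14.82, 14.89, 14.90 and 14.91 in short days, against 14.56, 14.56, 14.66 and 14.66 in long days. The groups were well separated (difference 0.27, 95% interval 0.19 to 0.35, past the call threshold, limma adjusted p = 0.125). The complex IV assembly factors Surf1 and Scox, a copper chaperone, had differences of -0.02 and 0.00, and Bcs1, which inserts the Rieske protein into complex III, one of 0.04. TFAM, which packages mitochondrial DNA, had a difference of -0.07 (95% interval -0.24 to 0.11), PolrMT, the mitochondrial RNA polymerase, one of -0.02, and ewg and Ets97D, homologues of the mammalian nuclear respiratory factors, 0.19 (95% interval -0.10 to 0.48) and -0.07 (95% interval -0.29 to 0.15).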

How the data were processed

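The authors extracted total RNA from heads with Trizol, labelled it as biotinylated cRNA and hybridised 1 Affymetrix Drosophila Genome 2.0 array per sample. The deposited values are log2 expression per probe set made with GCRMA (named in the submitters' processing notes, its version not given in the sources used here), which corrects background by probe sequence, normalizes by quantiles and summarises the probes. This hides changes in total mRNA and may compress the brightest probe sets, among them most members. The deposited table holds 18952 probe sets and no columns of other samples. It gives no scan date, so no batch was tested, and the number of arrays, 4 per group, limits the precision.

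After 183 control probe sets were set aside, the other 18769 entered a linear model without a block in limma (version 3.58.1, R version 4.3.3; two-sided, default eBayes), and p-values were adjusted by Benjamini-Hochberg over all of them. Genes were named by the platform annotation. All 42 members were found by Entrez number in RefSeq genes of Release 6 with the same symbol. No coordinates or sequences are given. Probe sets annotated to several genes were not used. ATPsynC, ATPsynD, ATPsynE, ATPsynF and COX7AL2 were read by probe sets whose type allows probes shared with related transcripts. No set test was run. Lists were described by counts and medians. Summed levels are the log2 of the sum of linear values. The steps were tested on simulated data.

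Every member is named. Values in all samples are given for called members, for those whose groups did not overlap and for the 3 of smallest p in each complex, and for COX7A and COX4, chosen after their values were seen. The members, lists and alternatives were chosen with earlier results of these data known. Results were recomputed with the replicate number as a block, without each array in turn, with array weights, after median centring or a further quantile normalization, with probe sets of mean under 4 or under 6 dropped, with values under 3 set to 3, with a gene's probe sets averaged, and with a trend and robust or an unmoderated variance.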

Additional observations from a re-analysis of the deposited data

Results flagged for a closer look

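In 60 groups of 4 samples (the 30 members of mean 4 or more, each in short days and in long days), 4 held a sample whose gap to its nearest neighbour was large against the range of the group (Dixon's test at the 95% level). By chance about 5% of such groups would be picked out. UQCR-6.4 was at 13.51 in short-day replicate 3, against 13.10 to 13.16 in the other short-day samples. COX4 was at 13.70 in short-day replicate 2, against 13.47 to 13.49 in the others, and COX7B was at 13.50 in short-day replicate 4, against 13.60 to 13.61. In long days, ox was at 12.62 in replicate 2, against 12.50 to 12.51 in the others. Short-day replicate 3 is the sample with flight muscle transcripts, and their part in its UQCR-6.4 value was not tested.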

How the results depend on the processing

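The number of called members, 3 with all arrays, was 0 with the replicate block, 6 after a second quantile normalization and 1 without long-day replicate 2 and short-day replicate 3 together. It ranged from 0 to 6 when single arrays were left out: 0 without long-day replicate 2 or 4, 1 without long-day replicate 1 or 3 or short-day replicate 3, 2 without short-day replicate 1 or 2, and 6 without short-day replicate 4. It was 2 to 4 under the other alternatives. The medians of the 3 complexes over all their members, 0.09 for complex III, 0.06 for complex IV and 0.10 for ATP synthase stayed above 0 under every alternative run. Moves of over 1.5 times were those of complex IV to 0.02 without short-day replicate 2, to 0.04 after median centring and to 0.09 with dim probe sets dropped, which removes its 6 unmeasured members, and that of complex III to 0.06 without short-day replicate 3. Of the 19 alternatives, the call of UQCR-11 was lost in 6, that of COX7AL2 in 9 and that of ATPsynC in 10, and the 10 members recomputed under each of them (the 7 without overlap, UQCR-14, Cyt-c1 and cype) kept their direction. Same-numbered short-day and long-day samples did not deviate together (correlations of 0.01, -0.23, -0.14 and 0.17). The labels do not say whether equal numbers mark samples handled together, and these correlations cannot decide it. The replicate block reduced the calls over all probe sets to 300, against 518 without it. The cause of these changes was not tested.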
